A study of Mus musculus with 24 samples.

Results

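Gjb2, Chrna4, 2210011C24Rik, Tox3, Oit1 and Ptpn20 are 6 genes whose RNA was low in spermatogonia (SPG) lacking ZBTB16, and they were picked for that, by name, from the 23177 genes of the table that holds the Zbtb16 null libraries. They were then followed over the sorted fractions and into a second table of 21688 genes, in which Sox3 had been deleted. RNA was sequenced from mouse testes at postnatal day 7, after magnetic sorting with antibodies to THY1, which marks undifferentiated SPG (uSPG), or to KIT, which marks differentiating SPG (dSPG). Each table held 12 libraries, with 3 in each of 4 groups, and its values are FPKM, in which the reads of a gene are divided by transcript length and by library depth.

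In the Zbtb16 table, THY1+ uSPG and KIT+ dSPG came from WT mice and from null mice homozygous for the luxoid (lu/lu) allele of Zbtb16, which is inherited and so present in every cell of the animal. In the Sox3 table, the same fractions came from WT littermates and from conditional knockouts (cKO), in which floxed Sox3 was deleted by a Ddx4-driven Cre, a driver active in germ cells. All mice were on the C57BL/6J background, and the testes of 3 mice were pooled for an isolation. The study describes its RNA-seq replicates as independent biological samples, and the labels do not add which isolation each library came from. Zbtb16 RNA itself stood at 32.8% of the WT mean in null THY1+ uSPG and at 35.6% in null KIT+ dSPG. Sox3 RNA was 6.28 to 24.4 FPKM in the 6 WT libraries of its table and 0 to 0.082 FPKM in the 6 cKO libraries.

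In the Sox3 table, RNA of the sorting markers contradicted how the WT libraries were labelled. Thy1 was at 0.24 ± 0.0233 FPKM (SD, n = 3) in WT labelled THY1+ and 3.83 ± 0.234 FPKM in WT labelled KIT+. Kit ran the other way, at 57.9 ± 19.2 and 15.3 ± 3.08 FPKM. The cKO libraries and all libraries of the Zbtb16 table matched their labels. The groups are therefore written below as "WT labelled THY1+" and "WT labelled KIT+", and every result that rests on them is also given against the WT group with like markers. The Zbtb16 libraries held about 25950000 to 35190000 reads as recovered from the steps of the FPKM values. The Sox3 libraries held about 11020000 to 31890000, and replicate 1 was the deepest in each group.

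ZBTB16, also called PLZF, is a zinc-finger transcription factor of undifferentiated SPG that is known for its part in maintaining them. The 6 genes encode proteins of different kinds. Gjb2 encodes connexin 26, a subunit of the gap junction channels that join neighbouring cells. Chrna4 encodes the alpha4 subunit of neuronal nicotinic acetylcholine receptors, which are cation channels opened by acetylcholine. Tox3 encodes a nuclear protein of the TOX family with an HMG box, a DNA-binding fold. Oit1, also called Fam3d, encodes a secreted cytokine-like protein of the FAM3 family. Ptpn20 encodes a protein tyrosine phosphatase of the non-receptor class, and 2210011C24Rik is annotated as protein coding under a clone name.

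All 6 genes were annotated as protein coding in GENCODE M21 on GRCm38, the build of the deposited values. Gjb2 (ENSMUSG00000046352) lies at chr14:57098600-57104702 on the minus strand. Oit1 (ENSMUSG00000021749) lies on the same chromosome at chr14:8348937-8378754, on the minus strand, and Ptpn20 (ENSMUSG00000021940) at chr14:33589207-33640754, on the plus strand. Chrna4 (ENSMUSG00000027577) lies at chr2:181018380-181043546, on the minus strand. 2210011C24Rik (ENSMUSG00000074217) and Tox3 (ENSMUSG00000043668) lie on the minus strand of chromosome 8, at chr8:84010222-84012171 and chr8:90247040-90348343. Thus 3 of the 6 were on chromosome 14, though far apart.

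The sequences before the start sites are shown because these genes were low together in the null and a reader may wish to compare their promoters. They come from RefSeq on GRCm38.p6, which held 5 of the 6 genes, and are given 5′ to 3′ in the direction of the gene. They are taken from the 250 bases before the RefSeq start and cut where an annotated exon of the gene begins. The Chrna4 stretch lies inside the gene span given above, as the RefSeq start used is downstream of the annotated 5′ end. Capitals mark GGGCGG, the GC box, on either strand. The TATA box TATAAA, the CCAAT box, the SOX core motif ACAATG and the E-box CACGTG were also searched on both strands and were not found in the letters printed.
Gjb2, chr14:57104703-57104952, minus strand: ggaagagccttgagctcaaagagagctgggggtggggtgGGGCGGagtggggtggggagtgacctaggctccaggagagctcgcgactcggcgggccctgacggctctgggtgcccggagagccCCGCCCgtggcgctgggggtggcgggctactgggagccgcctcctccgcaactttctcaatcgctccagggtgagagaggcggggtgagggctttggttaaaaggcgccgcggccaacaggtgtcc
Chrna4, chr2:181039306-181039427, minus strand: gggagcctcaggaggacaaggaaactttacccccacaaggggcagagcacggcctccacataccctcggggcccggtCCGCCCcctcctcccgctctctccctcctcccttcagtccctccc
Tox3, chr8:90348344-90348502, minus strand: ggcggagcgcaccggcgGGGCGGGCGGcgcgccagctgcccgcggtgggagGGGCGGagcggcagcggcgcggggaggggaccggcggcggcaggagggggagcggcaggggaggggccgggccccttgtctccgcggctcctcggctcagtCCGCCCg
Oit1, chr14:8378764-8379013, minus strand: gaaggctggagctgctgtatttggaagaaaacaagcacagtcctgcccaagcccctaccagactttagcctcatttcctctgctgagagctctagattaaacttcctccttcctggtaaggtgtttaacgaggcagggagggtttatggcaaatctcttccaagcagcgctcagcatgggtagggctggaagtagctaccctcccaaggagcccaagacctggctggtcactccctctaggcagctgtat
Ptpn20, chr14:33589020-33589206, plus strand: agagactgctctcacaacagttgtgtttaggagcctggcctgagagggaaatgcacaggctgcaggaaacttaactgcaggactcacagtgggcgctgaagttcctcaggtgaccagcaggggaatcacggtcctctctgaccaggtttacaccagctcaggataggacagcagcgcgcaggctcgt

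The 5 promoters did not share one base composition. Over the full 250 bases, Tox3 held 40 CpG dinucleotides, Chrna4 24, Gjb2 18, Ptpn20 10 and Oit1 2, against a median of 6 over the 32851 mouse promoters of the table. In the letters printed, Tox3 held 25, Chrna4 5, Gjb2 18, Ptpn20 5 and Oit1 2. A GC box was present in Gjb2, Chrna4 and Tox3 and absent from Oit1 and Ptpn20, and 32.7% of all promoters held at least 1. The full Ptpn20 window also held a CCAAT box, in the stretch not printed, as 33.8% of promoters did. None of the 5 windows held the TATA box, the SOX core motif or the E-box, which 12.4%, 10.7% and 6.0% of promoters held.

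Lower RNA in the Zbtb16 null is what the genes were picked for, so the values of null and WT libraries are a description, with no test. All 6 genes had lower means in the null in both fractions, and none was absent from a null library. The deficit was deepest for Gjb2, at 14.0% of the WT mean in THY1+ uSPG and 19.4% in KIT+ dSPG. In these sorted bulk samples, fewer cells that express a gene and less of its RNA per cell cannot be told apart.

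Gjb2 was at 3.67, 2.89 and 2.97 FPKM in the 3 WT THY1+ libraries and at 0.398, 0.558 and 0.381 FPKM in the null. In KIT+ dSPG it measured 1.25, 1.57 and 1.1 FPKM in WT and at 0.288, 0.264 and 0.209 FPKM in the null. The 4 groups did not overlap for this connexin gene, and every null library lay below every WT library of either fraction. The fitted log2 difference, null minus WT on log2(FPKM + 0.1), was −2.59 ± 0.19 (SE) in THY1+ uSPG and −1.98 ± 0.19 in KIT+ dSPG.

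Chrna4, the receptor subunit gene, was the most abundant of the 6 in WT THY1+ uSPG, at 8.0, 11.3 and 8.06 FPKM. It was at 1.47, 2.25 and 1.27 FPKM in null THY1+ uSPG, which is 18.3% of the WT mean. KIT+ dSPG had 1.35, 3.29 and 2.17 FPKM in WT and at 0.726, 1.53 and 0.718 FPKM in the null. The THY1+ groups stood well apart, whereas the KIT+ groups overlapped, since the null library at 1.53 FPKM lay above the lowest WT library. The log2 differences were −2.40 ± 0.35 and −1.11 ± 0.35.

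Oit1, the secreted-factor gene, was at 2.68, 2.39 and 1.99 FPKM in WT THY1+ uSPG and at 0.539, 0.581 and 0.655 FPKM in the null. KIT+ dSPG levels were 0.589, 0.613 and 0.406 FPKM in WT and at 0.185, 0.134 and 0.0802 FPKM in the null. The groups did not overlap within a fraction. Null THY1+ uSPG thus held about as much Oit1 RNA as WT KIT+ dSPG. The null stood at 25.1% of the WT mean in THY1+ uSPG and at 24.8% in KIT+ dSPG, with log2 differences of −1.82 ± 0.21 and −1.46 ± 0.21. The lowest value rested on 3 reads.

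Ptpn20, the phosphatase gene, was at 5.36, 5.17 and 4.93 FPKM in WT THY1+ uSPG and at 3.31, 2.67 and 2.53 FPKM in the null. It was at 3.23, 2.97 and 3.26 FPKM in WT KIT+ dSPG and at 1.56, 1.27 and 1.08 FPKM in the null. The groups did not overlap within a fraction, and null THY1+ uSPG lay at the level of WT KIT+ dSPG. Its deficit was the mildest of the 6 in THY1+ uSPG, where the null kept 55.0% of the WT mean, and was deeper in KIT+ dSPG, at 41.3%. The log2 differences were −0.85 ± 0.15 and −1.23 ± 0.15.

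Tox3, the HMG-box gene, was at 2.32, 2.01 and 2.02 FPKM in WT THY1+ uSPG and at 0.645, 0.454 and 0.459 FPKM in the null. KIT+ dSPG levels were 2.35, 1.74 and 1.37 FPKM in WT and at 1.41, 1.12 and 0.927 FPKM in the null. The THY1+ groups stood apart, and the KIT+ groups met, the highest null library lying just above the lowest WT library. The null kept 24.5% of the WT mean in THY1+ uSPG and 63.3% in KIT+ dSPG, with log2 differences of −1.85 ± 0.22 and −0.60 ± 0.22.

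2210011C24Rik was at 1.43, 1.70 and 1.32 FPKM in WT THY1+ uSPG and at 0.453, 0.290 and 0.157 FPKM in the null. KIT+ dSPG levels were 1.90, 1.22 and 1.51 FPKM in WT and at 1.11, 0.427 and 0.960 FPKM in the null. No library overlapped within a fraction, but this gene had the fewest reads, 2 to 47 per library over both tables, and null THY1+ uSPG held 8, 5 and 3. The null kept 20.2% of the WT mean in THY1+ uSPG and 53.8% in KIT+ dSPG, with log2 differences of −2.05 ± 0.34 and −0.89 ± 0.34. Mir1199, a microRNA gene on the same strand, shares 119 of its 1413 exon bases in GENCODE M21, and reads of the 2 cannot be told apart there. The deposited values gave whole reads at a length of 627 bases instead. Whether the shared bases were counted is therefore not known.

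**Figure D1:**
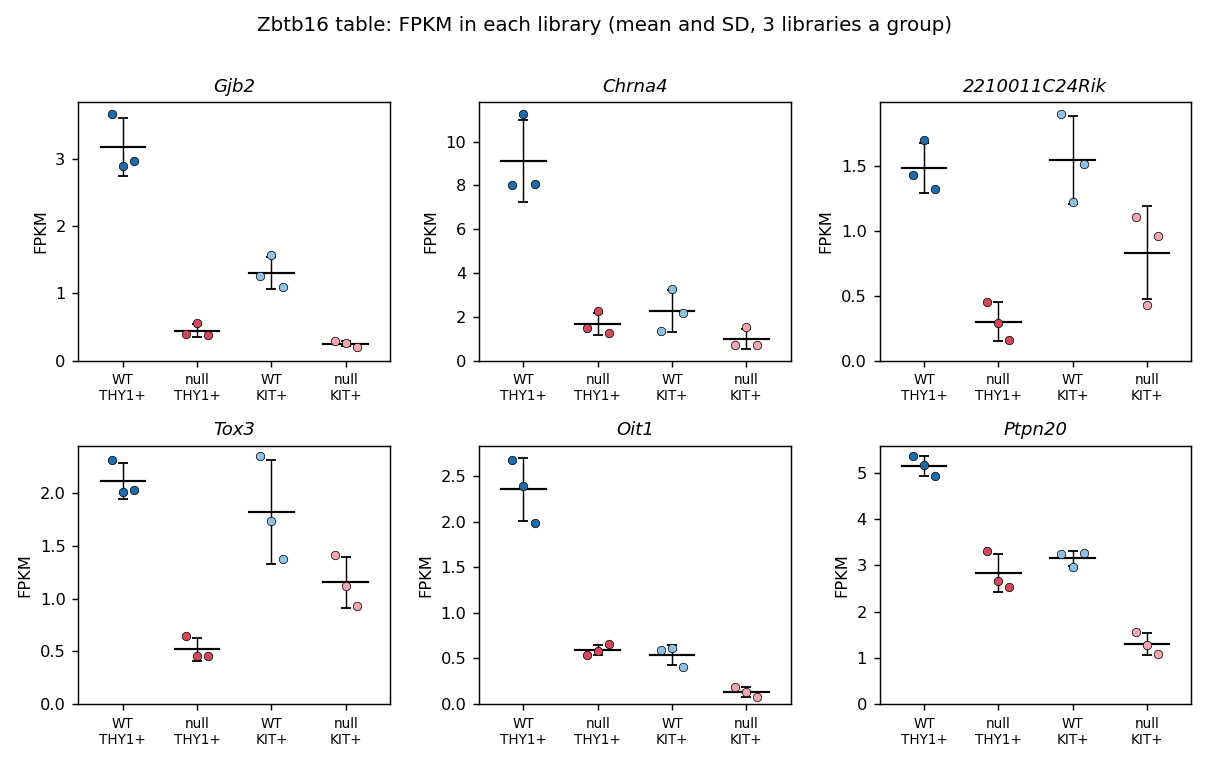
FPKM of the 6 genes in each library of the Zbtb16 table, as 1 point per library, with the group mean as a bar and the SD as whiskers (n = 3). In THY1+ uSPG each null group lies below its WT group, and in KIT+ dSPG the groups of Chrna4 and Tox3 overlap.

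The null groups themselves fell into contrasting orders between the fractions. Tox3 and 2210011C24Rik were lower in null THY1+ uSPG than in null KIT+ dSPG, the KIT+ mean being 222% and 277% of the THY1+ mean. Gjb2, Chrna4, Oit1 and Ptpn20 were higher in null THY1+ uSPG, with KIT+ means at 56.9%, 59.5%, 22.5% and 45.9% of the THY1+ means.

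By the size of the difference among the 202 genes that were called lower in null THY1+ uSPG, had a WT mean of at least 1 FPKM and did not overlap, 5 of the 6 held ranks 1 to 5 and Ptpn20 held rank 100. The genes just after rank 5 were Gm16267 at −1.80, Cartpt at −1.80 and Rln3 at −1.76 on the log2 scale, against −1.82 for Oit1. In KIT+ dSPG, where 11 genes met the same rule, Gjb2 held rank 1 and Ptpn20 rank 3. Zbtb16 (−1.45), Neurog3 (−1.19) and Cyp26a1 (−1.08) were the nearest genes that were not picked. Throughout, calling a gene required 1.5-fold or more and an adjusted p no higher than 0.05. The 6 genes were picked on this contrast, so their places in these rankings follow from that choice, and nothing is read from them.

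Markers of other testis cells moved in the same contrast. In null THY1+ uSPG, 7 of 7 measured macrophage markers were below WT, 1 of them called, and their summed level was 356 to 669 FPKM against 762 to 871 FPKM in WT. All 8 Sertoli, all 6 Leydig and all 8 peritubular and stromal markers were also below WT and all 4 germ cell markers above it, none of them called. The 11 markers of undifferentiated SPG summed to 204 to 257 FPKM in the null and 207 to 237 FPKM in WT, and none was called. In KIT+ dSPG the 6 Leydig, 8 peritubular and stromal and 6 endothelial markers were above WT instead, with medians of 0.60, 0.72 and 0.58 on the log2 scale. The 4 germ cell markers were below WT there, with a median of −0.25. The 6 markers of differentiating SPG summed to 258 to 307 FPKM in null KIT+ dSPG and 335 to 363 FPKM in WT. Of these, 4 were below WT and 2 above, with a median of −0.24. Of the 8 Sertoli markers, 6 were above WT and 2 below. None of these markers was called in KIT+ dSPG. No measured marker of these lists was at 0 throughout a group, and the part of such cells in the differences was not tested.

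The relatives of 5 of the genes were read from lists of gap junction proteins, nicotinic receptor subunits, TOX proteins, FAM3 proteins and non-receptor tyrosine phosphatases. The gap junction list also held pannexins, which are not connexins. Of 58 listed relatives, 48 were tested. In null THY1+ uSPG 2 were called lower and 2 higher, where 1.26% and 2.71% of all genes were called in these directions (limma with Benjamini-Hochberg adjustment). Among the gap junction genes, Gjb6, which encodes connexin 30, fell from 0.28 ± 0.0271 to 0.0754 ± 0.0355 FPKM, a log2 change of −1.13 ± 0.19 (adjusted p = 0.00738). The other 15 of 16 tested genes of this list, pannexins included, were not called, and the median of the list was −0.08 against −0.03 over all genes.

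Among the nicotinic receptor subunits, 0 of 10 were called lower (1.26% of all genes were), and Chrnb4, a beta subunit gene, was called higher, at 0.343 ± 0.0149 FPKM in the null and 0.119 ± 0.0536 FPKM in WT (log2 change 1.05 ± 0.23, adjusted p = 0.0251). Tox, the founding gene of the TOX family, fell by 0.68 on the log2 scale (adjusted p = 0.0358). Fam3b, a cytokine-like gene of the FAM3 family, rose by 0.78 (adjusted p = 0.0454), so it moved against Oit1. None of the 16 phosphatase relatives of Ptpn20 was called. In KIT+ dSPG 0 of the 48 relatives were called by limma, where 0.259% of all genes were, with 3863 of 22374 genes below an unadjusted p of 0.05. When the replicate number was entered as a block, 5 relatives were called in THY1+ uSPG and 2 in KIT+ dSPG. The THY1+ count of 4 dropped to 1 without WT THY1+ replicate 1 or 2 or null THY1+ replicate 1 or 3, and to 2 without WT KIT+ replicate 2 or 3.

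**Figure D2:**
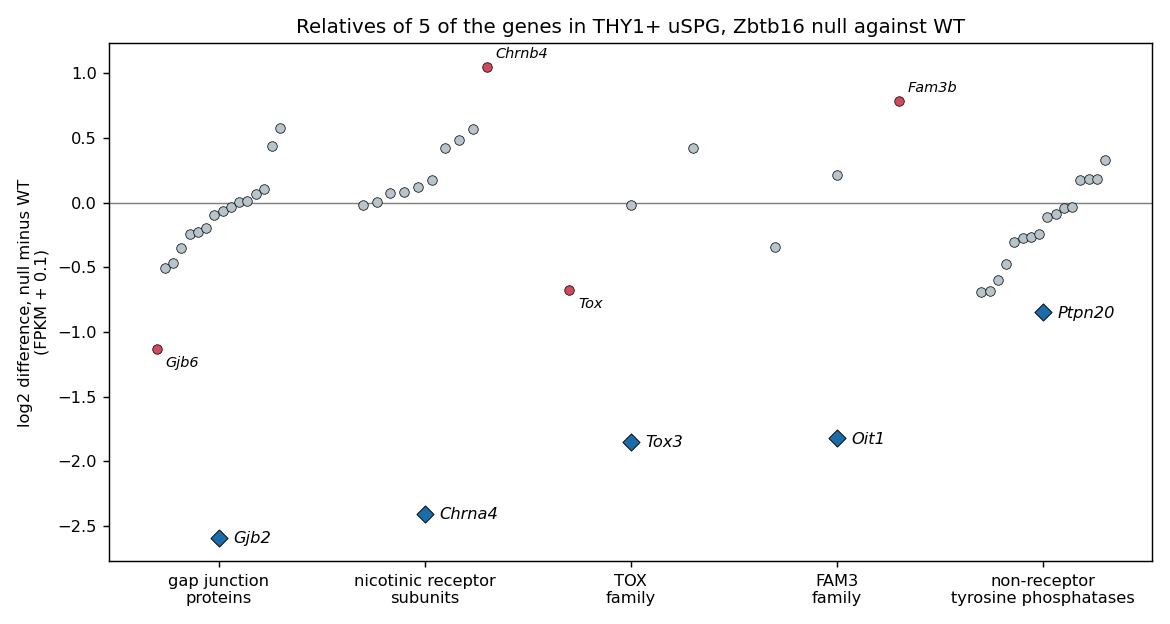
Log2 differences on log2(FPKM + 0.1), null minus WT in THY1+ uSPG, of the 48 tested relatives, as 1 circle per gene in 5 families, with the picked gene of each family as a diamond. The 4 circles in red are the relatives called, of which Gjb6 at −1.13 is the lowest, and all others are grey.

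The nearest measured genes on each side of the 6 made 12 neighbours, and 2 of these were called lower in null THY1+ uSPG, where 1.26% of all genes were, and 0 in null KIT+ dSPG, where 0.0670% were. Gjb6 is also the neighbour of Gjb2, lying 18601 bases from it on the same strand. Gja3, the next connexin gene on the other side, was not called (log2 difference −0.24). Palm3, on the opposite strand 9300 bases from 2210011C24Rik, fell from 3.17 ± 0.528 to 1.73 ± 0.177 FPKM (log2 change −0.83 ± 0.17, adjusted p = 0.0212). Col20a1, only 17 bases from the end of Chrna4 and transcribed from the opposite strand, changed by −0.41 and was not called. 2610318M16Rik spans part of Oit1 on the opposite strand, but the 2 share no exon base.

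In WT testes, the 6 genes were of 2 patterns between the fractions. Gjb2, Chrna4, Oit1 and Ptpn20 were higher in THY1+ uSPG than in KIT+ dSPG, the KIT+ mean being 41.1%, 24.9%, 22.8% and 61.2% of the THY1+ mean. Tox3 and 2210011C24Rik had KIT+ means at 85.9% and 104% of the THY1+ mean. The libraries of the fractions did not overlap for the first 4 genes and did for the other 2. The same WT libraries entered the choice of the genes, so these values are a description, with no test. Cell markers moved between these fractions too. The macrophage markers summed to 762 to 871 FPKM in WT THY1+ and 5.74 to 7.25 FPKM in WT KIT+ libraries. The Leydig markers summed to 88.0 to 126 and 1202 to 2247 FPKM. All 11 markers of undifferentiated SPG were called lower in WT KIT+ dSPG, where 14.0% of all genes were. The part of these cells in the differences was not tested.

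The fitted log2 differences, KIT+ minus THY1+, were −2.02 ± 0.35 (SE) for Chrna4, −1.96 ± 0.21 for Oit1 and −1.23 ± 0.19 for Gjb2. Ptpn20 differed by −0.69 ± 0.15, and by −0.52 when each library was centred on its median and −0.57 with a pseudocount of 1. Tox3 differed by −0.24 ± 0.22 and 2210011C24Rik by 0.04 ± 0.34.

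The cKO libraries of the Sox3 table were not those in which the genes were picked for their low RNA. The genes were, however, chosen with earlier results of these data known. The same contrast of fractions was read in these cKO libraries. Gjb2 was at 3.56, 3.40 and 3.01 FPKM in cKO THY1+ uSPG and at 1.16, 1.41 and 1.40 FPKM in cKO KIT+ dSPG. Chrna4 was at 14.3, 15.7 and 18.4 FPKM and at 3.05, 4.16 and 5.78 FPKM. For both genes every THY1+ library lay above every KIT+ library.

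Oit1 was at 2.49, 1.52 and 1.43 FPKM in cKO THY1+ uSPG and at 0.566, 0.405 and 0.743 FPKM in cKO KIT+ dSPG. Ptpn20 was at 3.40, 4.61 and 4.66 FPKM and at 1.80, 2.54 and 2.24 FPKM. These fractions did not overlap either. In contrast, Tox3 was at 1.46, 1.89 and 1.47 FPKM in THY1+ and 0.918, 2.62 and 1.66 FPKM in KIT+ libraries, which overlapped.

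2210011C24Rik was at 2.54, 1.16 and 1.85 FPKM in cKO THY1+ uSPG and at 0.847, 2.02 and 0.269 FPKM in cKO KIT+ dSPG. These values overlapped, and the lowest rested on 2 reads. By limma, 4 of the 6 genes were called lower in KIT+ dSPG. So were 12.2% of all genes and 49.4% of the other genes called lower in null THY1+ uSPG. The 4 were Gjb2 (−1.27 ± 0.19, adjusted p = 0.000396), Oit1 (−1.50 ± 0.26, adjusted p = 0.00139), Ptpn20 (−0.91 ± 0.22, adjusted p = 0.00845) and Chrna4 (−1.91 ± 0.55, adjusted p = 0.0222). Cell markers moved with the same contrast. In cKO KIT+ dSPG 11 of 11 undifferentiated SPG, 7 of 7 macrophage and 6 of 7 T cell markers were called lower. So was 1 of 4 germ cell markers. Called higher were 5 of 6 Leydig, 4 of 6 endothelial, 3 of 7 Sertoli and 3 of 6 differentiating SPG markers. The share of all genes called higher was 10.5%. The macrophage markers summed to 933 to 1068 FPKM in THY1+ and 7.61 to 8.34 FPKM in KIT+ libraries, and the Leydig markers to 82.4 to 117 and 2450.4 to 4899 FPKM. The part of all these cells in the differences was not tested.

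Chrna4 was less secure than the other 3: its adjusted p lay between 0.0508 and 0.0764 without cKO THY1+ replicate 2 or 3 or cKO KIT+ replicate 1 or 2, and was 0.198 with replicates 2 and 3 alone. Tox3 did not differ past the threshold (−0.00, 95% interval −0.70 to 0.70), and neither did 2210011C24Rik (−1.04, −2.19 to 0.10). Without cKO KIT+ replicate 2, the latter changed by −1.66 and was called (adjusted p = 0.0186).

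The WT libraries of the Sox3 table had the same 4 genes on the side of high Thy1 RNA, against their labels. Gjb2 was at 3.57, 3.96 and 4.55 FPKM in WT labelled KIT+ and at 1.41, 1.53 and 2.18 FPKM in WT labelled THY1+. Oit1 was at 2.32, 2.57 and 2.05 FPKM and at 0.551, 0.411 and 0.355 FPKM. Both genes stood apart without overlap between the labelled fractions.

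Ptpn20 was at 3.29, 4.12 and 5.04 FPKM in WT labelled KIT+ and at 2.84, 1.88 and 2.37 FPKM in WT labelled THY1+. Chrna4 varied most, at 7.68, 3.22 and 15.1 FPKM and at 2.20, 0.997 and 4.51 FPKM, and its labelled fractions overlapped. In both labelled fractions replicate 3 was its highest and replicate 2 its lowest library.

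All 4 were called higher in WT labelled KIT+, where 13.1% of all genes were. The log2 differences were 1.21 ± 0.19 for Gjb2, 2.17 ± 0.26 for Oit1, 0.78 ± 0.22 for Ptpn20 and 1.69 ± 0.55 for Chrna4, with limma adjusted p-values of 0.000607, 0.000105, 0.0203 and 0.0422. Only 2 genes were called without WT labelled THY1+ replicate 2 or WT labelled KIT+ replicate 3, when Ptpn20 had adjusted p-values of 0.0865 and 0.0846 and Chrna4 0.168 and 0.161. Chrna4 lost its call in 13 of 21 alternatives, at limma adjusted p-values of 0.0504 to 0.218, among them centring (0.0546), no trend or robust setting (0.0552) and a fit of the 2 WT groups only (0.107). Ptpn20 also lost its call without WT labelled KIT+ replicate 2 (0.0574). Tox3 was at 1.77, 2.10 and 2.67 FPKM in WT labelled THY1+ and at 1.37, 1.90 and 2.14 FPKM in WT labelled KIT+. 2210011C24Rik was at 1.85, 2.46 and 1.89 FPKM and at 1.98, 1.82 and 1.02 FPKM. Neither of these 2 was called, and their labelled fractions overlapped. Markers of undifferentiated SPG were called higher in WT labelled KIT+ for 10 of 11. The macrophage markers summed to 883 to 1219 FPKM there and to 6.51 to 6.85 FPKM in WT labelled THY1+. The part of these cells in the differences was not tested.

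**Figure D3:**
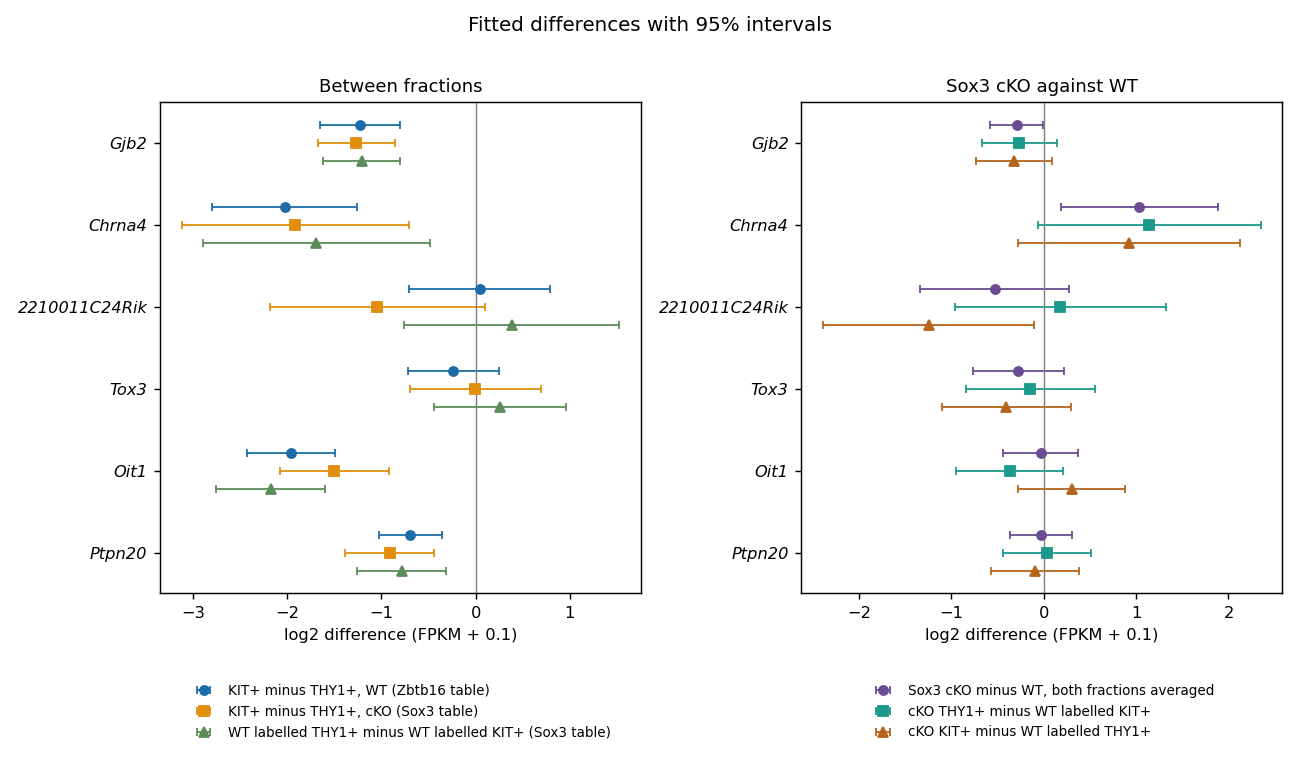
Fitted log2 differences on log2(FPKM + 0.1) with 95% intervals for the 6 genes, between the fractions (left, KIT+ minus THY1+, or WT labelled THY1+ minus WT labelled KIT+) and between Sox3 cKO and WT (right). On the left, Gjb2, Chrna4, Oit1 and Ptpn20 lie below 0 in all 3 contrasts, of which that within WT of the Zbtb16 table is a description, and on the right the average contrast of Chrna4 lies at 1.03.

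Loss of Sox3, a gene of the SOX family of HMG-box transcription factors that is expressed in SPG, was compared with WT as the average over both labelled fractions, a value that stays the same if the WT labels are exchanged. None of the 6 genes was called by limma, where 10.3% of all genes were called in either direction and 8155 of 21212 genes had an unadjusted p under 0.05. The cKO mean over 6 libraries was 81.1% of the WT mean for Gjb2, 78.9% for 2210011C24Rik, 83.9% for Tox3, 86.7% for Oit1 and 98.5% for Ptpn20. Chrna4 stood apart at 182%.

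For Oit1 and Ptpn20 the log2 differences were −0.03 (95% interval −0.44 to 0.38) and −0.03 (−0.37 to 0.30). Gjb2 differed by −0.29 (−0.58 to −0.01, unadjusted p = 0.0457 and adjusted p = 0.122 by limma). Tox3 differed by −0.28 (−0.77 to 0.22) and 2210011C24Rik by −0.53 (−1.34 to 0.27). These intervals leave room for changes of up to the bounds given.

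Chrna4 was 1.03 ± 0.39 higher in the cKO on the log2 scale (95% interval 0.18 to 1.88, unadjusted p = 0.0216), which did not pass the threshold (limma adjusted p = 0.0733). It was called with the replicate number as a block (adjusted p = 0.0162) and without WT labelled THY1+ replicate 3 (0.0287) or WT labelled KIT+ replicate 3 (0.0237). Both of the latter are the libraries where WT Chrna4 was highest. The cKO values of 14.3 to 18.4 FPKM in THY1+ uSPG overlapped WT labelled KIT+ through that 1 library at 15.1 FPKM.

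Against the WT group with like markers, 0 of the 6 genes were called in either comparison. In cKO THY1+ uSPG against WT labelled KIT+, 0.0707% of all genes were called, and in cKO KIT+ dSPG against WT labelled THY1+, 17.0% were. In these comparisons Gjb2 was at 82.5% and 77.6% of the WT mean, Chrna4 at 187% and 169%, and Ptpn20 at 102% and 92.9%. Oit1 was at 78.5% and 130%, Tox3 at 89.1% and 79.5%, and 2210011C24Rik at 115% and 50.6%. The last gene was called in the second comparison without cKO KIT+ replicate 2 (−1.86, adjusted p = 0.0169).

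Compared as labelled, the fractions and the genotypes are mixed with the label conflict. Then 4 genes were called higher in the cKO of the THY1+ label, where 17.8% of all genes were, and these were Gjb2, Chrna4, Oit1 and Ptpn20 with log2 differences of 0.94, 2.84, 1.80 and 0.82. In the KIT+ label 3 were called lower, where 12.6% of all genes were, namely Gjb2 (−1.53), Oit1 (−1.87) and Ptpn20 (−0.88). Thy1 differed by 3.78 and −3.40 in the same comparisons.

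Cell type markers moved with the Sox3 genotype as well. On average over the fractions, 3 of 7 Sertoli, 3 of 6 Leydig, 3 of 8 peritubular and stromal and 2 of 6 endothelial markers were called higher in the cKO, where 7.49% of all genes were. Of the germ cell markers 1 of 4 was called lower, as were 3 of 6 markers of differentiating SPG and 2 of 11 of undifferentiated SPG (Lin28a and Upp1), where 2.83% of all genes were. Against WT with like markers, 0 in any list were called in cKO THY1+ uSPG, where 0.0707% of all genes were. In cKO KIT+ dSPG so compared, 4 of 6 Leydig and 4 of 6 endothelial markers were called higher, where 12.4% of all genes were. So were 3 of 8 peritubular and stromal, 2 of 7 Sertoli, 2 of 7 macrophage and 2 of 11 undifferentiated SPG markers. Called lower were 4 of 6 differentiating SPG, 2 of 4 germ cell and 1 of 11 undifferentiated SPG markers, against 4.57% of all genes. The part of these cells in the values of the 6 genes was not tested. Zbtb16 RNA was not called in the cKO (log2 difference −0.28, 95% interval −0.72 to 0.17), and it was higher in cKO THY1+ uSPG than in cKO KIT+ dSPG, at 46.6 ± 5.72 and 13.8 ± 3.48 FPKM.

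**Figure D4:**
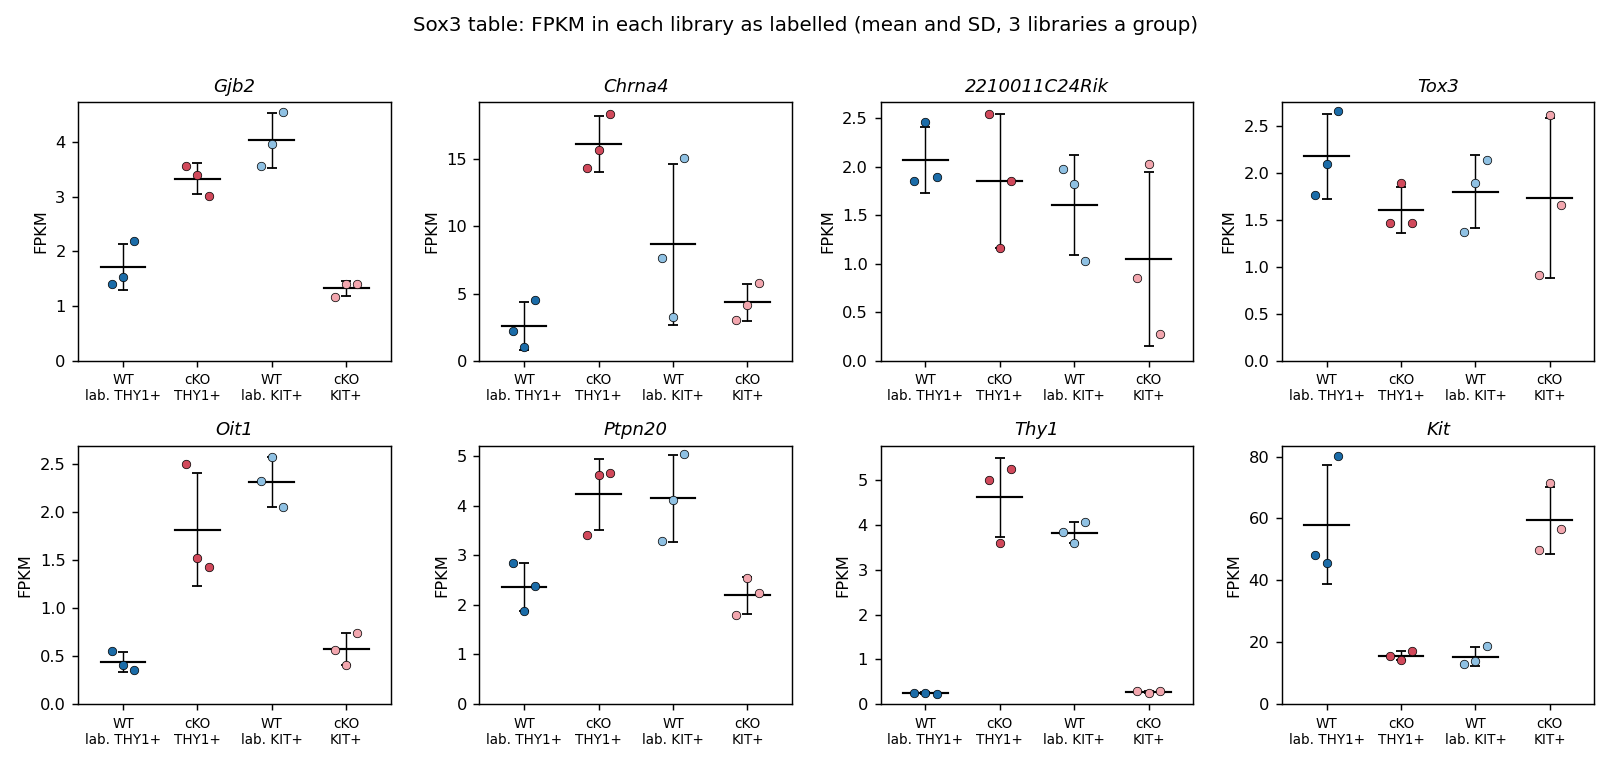
FPKM of the 6 genes and of the sorting markers Thy1 and Kit in each library of the Sox3 table, grouped as labelled, with the group mean as a bar and the SD as whiskers (n = 3). Thy1 is near 0 in WT labelled THY1+ and high in WT labelled KIT+, and Gjb2, Oit1 and Ptpn20 are high in the same groups as Thy1.

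Across the 12 libraries of the Zbtb16 table the 6 genes formed 2 sets, given here as a description since the libraries share the genotype and fraction contrasts. Pearson correlations of log2(FPKM + 0.1) lay between 0.84 and 0.95 among Gjb2, Chrna4, Oit1 and Ptpn20. Tox3 and 2210011C24Rik correlated at 0.92 with each other, and at 0.30 to 0.72 with the other 4. In the Sox3 table the correlations within the first set were 0.65 to 0.88, and that of Tox3 with 2210011C24Rik was 0.25.

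The genes with the most similar pattern in the Zbtb16 table, among 16519 genes with a mean of at least 1 FPKM, included Zbtb16 itself for Oit1 (r = 0.98) and Ptpn20 (r = 0.95). In the Sox3 table these were 0.80 and 0.93. Grik3 was closest to Gjb2 (r = 0.97), followed by Neurog3 and Tirap (both 0.96), and in the Sox3 table these stood at 0.53, 0.31 and 0.74. Arhgap26 (r = 0.97) and Ncam1 (r = 0.97) were closest to Chrna4, at 0.90 and 0.93 in the Sox3 table, and Mpzl2 followed Zbtb16 for Oit1, at 0.97 and 0.96 in the 2 tables. Ntf5, which encodes a neurotrophin, was closest to both 2210011C24Rik (r = 0.96) and Tox3 (r = 0.94). In the Sox3 table Ntf5 stood at only 0.54 and 0.30. The next for 2210011C24Rik were 4930412M03Rik and Rab1 (both 0.88), at −0.09 and 0.44 in the Sox3 table. For Tox3 they were Fndc3a and Ccdc82 (both 0.93), at 0.21 and −0.19 in the Sox3 table. Apc was closest to Ptpn20 (r = 0.97, and 0.55 in the Sox3 table), followed by St6galnac3 (r = 0.97, and 0.76). All these values are over 12 libraries in a table.

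The other 277 genes called lower in null THY1+ uSPG give the setting for these values. Of them 161 were called lower in WT KIT+ dSPG than in WT THY1+ uSPG, as 14.0% of all genes were, and 132 of the 267 that were tested in the Sox3 table were called lower in cKO KIT+ dSPG than in cKO THY1+ uSPG, as 12.2% of all genes were. In the Sox3 cKO average, 5 of the 267 were called lower and 21 higher, against 2.83% and 7.49% of all genes, with a median log2 difference of 0.22. These genes were chosen on the same contrast, and the counts are descriptions.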

How the data were processed

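RNA was sequenced from 24 libraries, in 8 groups of 3. The authors aligned single reads of stranded, ribosomal RNA-depleted libraries to mm10 with Novoalign, with a setting that keeps reads placed at several positions, and deposited FPKM for each gene and library, in 1 table per experiment. The strand setting of their counting is not given in the sources used here. The authors' own test, DESeq2, needs counts. In its place limma 3.58.1 in R 4.3.3 was used on log2(FPKM + 0.1) for genes with a mean of at least 0.1 FPKM over the 12 libraries of a table, with 4 group means, trended and robust eBayes, two-sided tests and Benjamini-Hochberg adjustment over all genes tested. A call needed an adjusted p of at most 0.05 and 1.5-fold. A fold on this scale understates the change of low genes. Reads per gene were recovered from FPKM steps for description only, and cover counting error only. The script was tested on simulated data. Groups came from the labels alone. Differences of the 6 genes among the WT and null groups of the Zbtb16 table, WT fractions included, are given untested, since those libraries entered their choice.

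The 6 genes and all lists were chosen with earlier results of these data known. Beside them, the genes named are the targeted genes, the sorting markers, the next 3 genes by fall in each null fraction, the 3 genes most alike in pattern to each, every relative called in the null (1 listed relative is not reported here and is left out of every count of relatives), and the nearest measured genes. Same-numbered libraries deviated together in every pair for null against WT (r from 0.133 to 0.475 in THY1+ and 0.362 to 0.520 in KIT+). They also did between the null fractions (0.315 to 0.519) and for cKO THY1+ against WT labelled KIT+ (0.125 to 0.268). The range was 0.0702 to 0.381 between the WT fractions of the Zbtb16 table and 0.0808 to 0.230 between the cKO fractions. It was 0.0904 to 0.342 between the labelled WT fractions and 0.0222 to 0.348 for cKO KIT+ against WT labelled THY1+. For cKO against WT as labelled it was −0.0371 to 0.156 in THY1+ and −0.119 to 0.258 in KIT+. The labels do not say what the numbers share. Alternatives were other pseudocounts, filters, scaling, variance models, samples, the replicate block and each library left out. Markers of endothelial and T cells were also read: in null THY1+ uSPG 4 of 6 and 4 of 7 were below WT, with 0 called in each list.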

Additional observations from a re-analysis of the deposited data

How the results depend on the processing

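No result of the 6 genes reversed: of 876 repeated tests, 847 kept their side of the threshold, 23 lost a call and 6 gained one. The 4 relatives called in null THY1+ uSPG became 2 with a pseudocount of 0.01 or 1 or with only the groups compared, 0 with a filter at 1 FPKM, and 1 to 5 with each library left out. The filter removed low genes, but Fam3b, at 6.08 FPKM in WT and 10.5 FPKM in null THY1+ uSPG, passed it and lost its call. The cause was not tested. With the replicate block, relatives called went from 4 to 5 in null THY1+ uSPG and from 0 to 2 in null KIT+ dSPG, the genes called in the Sox3 average gained 1 of the 6 (Chrna4), and cKO THY1+ against WT labelled KIT+ went from 15 to 29 genes, while no call of the other 5 genes changed through the pairing.

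Genes called between WT fractions went from 4737 to 2883 with a pseudocount of 1 and 3139 with a filter at 1 FPKM, which removed genes. The Sox3 average went from 2188 to 1024 with a pseudocount of 1. cKO THY1+ against WT labelled KIT+ gave 9 genes with the filter at 1 FPKM, 27 with centring and 1 with only the groups compared. With replicates 2 and 3 only, which are shallower and fewer, the counts were 597 for the Sox3 average, 2480 (of 4809) between cKO fractions, 3291 (of 5314) as labelled in KIT+, 0 for cKO THY1+ against WT labelled KIT+ and 987 (of 3608) for cKO KIT+ against WT labelled THY1+. With each library left out, these last 2 ranged over 5 to 15 and 2334 to 3697 genes. Of the 6 genes, 0 to 1 were called in the Sox3 average, 0 to 1 in cKO KIT+ against WT labelled THY1+, and 2 to 4 between the labelled WT fractions. All alternatives for comparisons with like or labelled WT groups and for relatives, and replicates 2 and 3 alone in any comparison but the Sox3 average, were chosen after seeing the data. With a pseudocount of 1 the log2 differences in null THY1+ uSPG shrank to −1.53 for Gjb2, −1.93 for Chrna4, −0.94 for 2210011C24Rik, −1.04 for Tox3 and −1.07 for Oit1, and in null KIT+ dSPG to −0.88 for Gjb2, −0.44 for Oit1 and −0.86 for Ptpn20. With a pseudocount of 0.01 those of Gjb2 and Oit1 in KIT+ dSPG grew to −2.32 and −1.98. Depth limits 2210011C24Rik and Oit1 most, at 2 to 47 and 3 to 101 reads per library.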
